A study of Mus musculus with 20 samples.

Results

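Homeostatic microglia genes are genes that resting microglia of the mouse express strongly. Many of them, but not all, are used to tell microglia from other macrophages. The set here held P2ry12, Tmem119, Cx3cr1, Sall1, Fcrls, Csf1r, Siglech, Gpr34 and Olfml3, and its members were the array probes annotated with 1 of these 9 symbols. There were 11 such probes for 8 of the 9 genes, among 44290 probes on the array and 19087 genes with a probe of their own. No probe carries the symbol of Csf1r, the receptor for Csf1 and Il34, in the annotation used here, so it was not analysed here. All 11 probes had a value on 20 of 20 arrays and all 11 passed the filter on missing values, which left 43779 probes for testing.

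The RNA came from spinal cords of 12 GFAP-IkappaBalpha-dn transgenic (TG) and 11 wild type (WT) mice, with 1 animal of a pair in Cy5 and the other in Cy3 on each of 20 dual-colour arrays. TG mice carry a dominant negative IkappaBalpha driven by the promoter of the astrocyte gene Gfap, which blocks NF-kappaB signalling in astroglia, and they were bred from heterozygous males and WT females. All animals were female C57BL/6 mice, labelled as 60 days old where the design text gives 2 to 4 months, and the WT mice were littermates. The label of 60 days is the same at every time, so it cannot be the age of mice taken at 80 dpi. Age at sampling is thus not known, and its part in differences between times was not tested. The groups were TG and WT naive mice and TG and WT mice in which experimental autoimmune encephalomyelitis had been induced, abbreviated EAE, a T cell-driven demyelinating condition of brain and cord. Mice with EAE were taken on day 10, on day 17 or on day 80 after induction (dpi). EAE was induced with 150 ug of MOG(35-55) peptide, a fragment of a myelin protein, given under the skin in complete Freund's adjuvant on days 0 and 7, with 500 ng of pertussis toxin injected into the abdomen on days 0 and 2. Each group held 3 animals except WT at 17 dpi, where the labels name only animals 1 and 4 and the design text states 3. TG and WT animals were paired on 3 naive arrays, 4 at 10 dpi, 3 at 17 dpi and 4 at 80 dpi. The remaining 6 arrays set 1 time against another inside a genotype, 1 array per pair of times, and none of them includes 10 dpi.

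Microglia are the resident macrophages of brain and spinal cord. Their identity depends on signals from the surrounding tissue, among them transforming growth factor beta and the ligands of Csf1r, and on the transcription factor Sall1. In inflammation and demyelination mouse microglia are known to lower much of this gene set while they raise a set of disease-associated genes such as Trem2 and Gpnmb, and monocytes that enter the cord add myeloid RNA without most of the homeostatic transcripts.

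The deposited values are log ratios, taken as log2, with no signal level for either animal. Levels, the order of the genes by level and the presence of cell type markers in these cords therefore could not be examined. In whole cord, fewer microglia and less RNA per microglial cell cannot be told apart. Which of the paired animals was divided by the other is not stated in the files or labels. Ratios were read as TG over WT and as EAE over naive. Of the remaining arrays, that of WT mice was read with 17 dpi as numerator and 80 dpi as denominator, and that of TG mice the other way round. This reading was chosen with earlier results of these data known, partly from immune gene lists, and it is not settled. Skeletal muscle genes give a value per animal that bears on it. Their median deposited ratio was 2.28 and 2.89 on the arrays with TG animal 21, 1.71 and 2.07 on those with TG animal 27, and 3.55 and 3.17 on those with TG animal 1-5, with the animal in Cy3 on 1 and in Cy5 on the other array each time. On the other arrays that median lay between -0.44 and 0.25. Muscle RNA thus stayed with the same 3 TG animals under this reading. Under title order the arrays with these animals in Cy3 would place it in WT animals 15, 14 and 1-4 instead. The other arrays of those WT animals are among those between -0.44 and 0.25. Results with every ratio read as Cy5 over Cy3, as the titles list the animals, and results without those 3 animals stand with the limits at the end. Signs differ in the first of these.

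P2ry12 (probe 3533, accession NM_027571) and Gpr34 (15360, NM_011823) are G protein-coupled receptors, for ADP and for lysophosphatidylserine. Cx3cr1, the receptor of the neuronal chemokine Cx3cl1, has 2 probes (18465 and 37906, both NM_009987). Fcrls, a scavenger receptor of the Fc receptor-like family, also has 2 probes on 1 accession (26953 and 31207, NM_030707). Olfml3, a secreted olfactomedin-like glycoprotein, has 1 probe on NM_133859 (22344) and 1 on AK143728 (13234). Tmem119, a membrane protein used as a microglia marker (39818, NM_146162), Siglech, a sialic acid-binding lectin that plasmacytoid dendritic cells also carry (36928, NM_178706), and the zinc finger factor Sall1 (24562, NM_021390) have 1 probe each. By the RefSeq annotation of GRCm38.p6, P2ry12 lies on chromosome 3 from 59216271 to 59262985, Fcrls on chromosome 3 from 87250736 to 87263765 and Olfml3 on chromosome 3 from 103735394 to 103738001. Cx3cr1 lies on chromosome 9 (120048683 to 120068296), Gpr34 on chromosome X (13622650 to 13640859), Sall1 on chromosome 8 (89027242 to 89044162), Siglech on chromosome 7 (55768154 to 55779448) and Tmem119 on chromosome 5 (113793729 to 113800396). All are protein-coding. The part of each transcript that a probe covers is not given in the sources used here.

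The start regions of the genes that passed a test in any comparison and have an entry in the RefSeq promoter table (GRCm38.p6) are shown from 250 bases before to 50 bases after the gene's start, read 5' to 3' in the direction of the gene. Capitals mark GAGGAA or its reverse complement TTCCTC, the core bound by the myeloid lineage factor PU.1 (Spi1).
Fcrls (chr3:87263475-87263774, minus strand): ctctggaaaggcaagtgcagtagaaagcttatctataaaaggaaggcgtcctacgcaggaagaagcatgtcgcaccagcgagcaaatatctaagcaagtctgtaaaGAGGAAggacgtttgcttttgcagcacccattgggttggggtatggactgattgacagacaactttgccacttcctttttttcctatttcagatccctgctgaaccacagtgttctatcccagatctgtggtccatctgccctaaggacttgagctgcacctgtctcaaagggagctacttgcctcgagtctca
Cx3cr1 (chr9:120068247-120068546, minus strand): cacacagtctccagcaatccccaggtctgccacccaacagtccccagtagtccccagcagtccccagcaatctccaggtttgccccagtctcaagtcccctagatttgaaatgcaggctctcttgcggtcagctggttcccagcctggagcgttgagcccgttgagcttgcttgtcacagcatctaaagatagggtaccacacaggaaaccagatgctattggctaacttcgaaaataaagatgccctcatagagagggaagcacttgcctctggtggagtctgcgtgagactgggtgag
P2ry12 (chr3:59262936-59263235, minus strand): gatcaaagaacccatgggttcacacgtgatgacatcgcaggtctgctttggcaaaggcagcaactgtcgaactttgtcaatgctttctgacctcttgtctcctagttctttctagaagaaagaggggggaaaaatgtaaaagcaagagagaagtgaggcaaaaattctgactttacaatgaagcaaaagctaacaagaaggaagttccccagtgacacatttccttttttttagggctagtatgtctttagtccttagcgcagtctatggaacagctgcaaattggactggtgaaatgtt
Olfml3 (chr3:103737952-103738251, minus strand): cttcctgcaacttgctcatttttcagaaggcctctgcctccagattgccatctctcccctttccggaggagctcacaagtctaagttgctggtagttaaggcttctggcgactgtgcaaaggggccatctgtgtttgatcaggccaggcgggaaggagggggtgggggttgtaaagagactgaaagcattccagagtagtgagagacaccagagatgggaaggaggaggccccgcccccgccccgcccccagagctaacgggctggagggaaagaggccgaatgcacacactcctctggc
Both spellings were searched on the printed strand, which covers both strands of the DNA, and the matches do not overlap. Fcrls held 1 match, beginning at position -144 counted from the gene's start. The windows of Cx3cr1, P2ry12 and Olfml3 held none. Of the 8 windows of 6 member genes, 2 held a match (Fcrls and Siglech), and 28.3% of all 32851 windows in the table did. A match is a run of letters, not a bound site.

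In naive cord TG and WT mice were not distinguished by any of the homeostatic genes. P2ry12 was at -0.27 ± 0.29 (log2 fold change, TG minus WT, ± SE of the fit, 3 TG and 3 WT animals), Gpr34 at -0.22 ± 0.21 and Tmem119 at 0.16 ± 0.20. The remaining 8 probes lay between -0.08 and 0.08, and 0 of 11 probes were called by limma at an adjusted p under 0.05, the threshold used throughout. Over all probes 0% were called, and 0 of the 11 and 459 of all probes had an unadjusted p under 0.05. The narrowest interval was that of Fcrls by probe 26953 (95% confidence interval -0.22 to 0.14), and the widest that of P2ry12 (-0.88 to 0.34).

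P2ry12 had a large dye term. Its deposited ratios in naive mice were -0.81 for TG 5 over WT 2, 0.44 for TG 7 over WT 3 and -0.69 for TG 8 over WT 4, with the TG animal in Cy3 on the array that gave 0.44. The fitted dye term of P2ry12 was -0.46, larger in size than that of all but 3.95% of probes. With it taken off, the same arrays gave -0.35, -0.02 and -0.22. The dye terms of the other 10 probes lay between -0.10 and 0.19. Values per array below have the dye term taken off, as in the plot of single arrays.

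**Figure D1:**
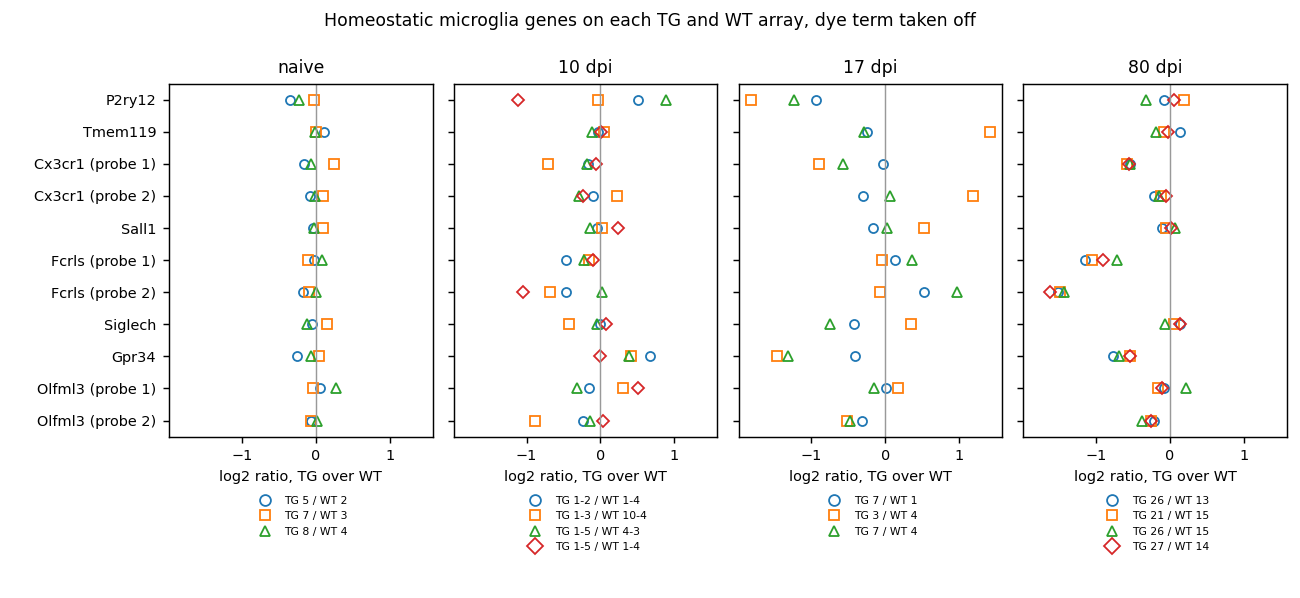
Log2 ratio of TG over WT for each of the 11 probes on each TG and WT array, dye term taken off, in naive mice and at 10, 17 and 80 dpi. Each symbol is 1 array, with its animals named below the panel, and of 2 probes of a gene the one with the lower number is called probe 1. At 80 dpi the 4 arrays lie close together and Fcrls is far below 0, while at 17 dpi the pairing of TG 3 with WT 4 stands apart for Tmem119 (1.42), the second Cx3cr1 probe (1.18) and P2ry12 (-1.82).

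At 10 dpi again 0 of 11 probes were called, against 0.0251% of all probes. The difference largest in size among the 11 was that of Fcrls by probe 31207, -0.54 ± 0.15 (unadjusted p = 0.0028, adjusted p = 0.338, limma, 3 TG and 3 WT animals). Fcrls by probe 26953 was at -0.24 ± 0.08 (adjusted p = 0.495). Its probe 31207 gave -0.47 for TG 1-2 over WT 1-4, -0.68 for TG 1-3 over WT 10-4, 0.03 for TG 1-5 over WT 4-3 and -1.05 for TG 1-5 over WT 1-4. Probe 26953 gave -0.46, -0.16, -0.23 and -0.10 on the same arrays. Thus 3 of 4 and 4 of 4 arrays were below 0. Olfml3 (22344, -0.31 ± 0.12) and Cx3cr1 (18465, -0.28 ± 0.12) also had unadjusted p-values under 0.05, 4 of 11 in all with the 2 Fcrls probes. Of all 43757 probes tested at 10 dpi, 2857 had an unadjusted p under 0.05.

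Those values of Olfml3 and Cx3cr1 came mainly from 1 array. For TG 1-3 over WT 10-4 Olfml3 was at -0.89 and Cx3cr1 at -0.71, against -0.23 to 0.04 and -0.18 to -0.06 on the other 3 arrays. On that array the median ratio of 11 probes of MHC class II genes was -2.74, against -0.54 to 0.27 on the other 3, and its part in the result was not tested. P2ry12 differed in sign between the 2 arrays of TG animal 1-5, 0.89 over WT 4-3 and -1.12 over WT 1-4, and its fitted value was 0.06 ± 0.28. Gpr34 was above 0 on 3 of 4 arrays (0.66, 0.41, 0.38 and -0.00; 0.36 ± 0.20, adjusted p = 0.903). Tmem119 (-0.02 ± 0.20), Sall1 (0.02 ± 0.09) and Siglech (-0.10 ± 0.13) were close to 0. The 10 skeletal muscle probes had a median of 3.51 and 3.27 on the 2 arrays of TG animal 1-5, against -0.43 and -0.18 on the other 2, and the part of muscle RNA in these values was not tested. The difference between the genotype effects at 10 dpi and in naive mice was called for 0 of 11 probes, and for 0% of all probes.

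At 17 dpi the homeostatic genes split. P2ry12, Gpr34, Cx3cr1 by 1 of its 2 probes and Olfml3 by 1 of its 2 probes were lower in TG cord, while Fcrls by 1 of its 2 probes was higher. Tmem119, Sall1 and Siglech did not pass. That is 5 of 11 probes called, against 13.0% of all probes, with 4 lower (8.45% of all probes) and 1 higher (4.56%). The median of the 11 probes was -0.0015, against 0.04 over all probes, both close to 0.

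At 17 dpi P2ry12 in TG cord lay 1.00 below WT on the log2 scale (SE 0.29, adjusted p = 0.0335, limma, 2.00-fold). The labels name 3 TG and 2 WT animals at that time. P2ry12 was at -0.94 for TG 7 over WT 1, -1.82 for TG 3 over WT 4 and -1.24 for TG 7 over WT 4. The lowest of the 3 naive arrays was at -0.35. TG 7 and WT 4 each stand on more than 1 of the arrays of 17 dpi, so these are not separate values. Gpr34 was lower in TG by 0.73 (SE 0.21, adjusted p = 0.0326, limma), with -0.40, -1.47 and -1.31 on the same arrays. Its naive arrays ran from -0.26 to 0.05. The share of all probes with such gaps between the arrays of 17 dpi and of naive mice was not counted.

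Cx3cr1 was divided between its probes. Probe 18465 gave -0.03, -0.89 and -0.57 and was lower in TG by 0.43 (SE 0.12, adjusted p = 0.032, limma). Probe 37906, on the same accession, gave -0.30, 1.18 and 0.07 and was at 0.20 ± 0.17 (adjusted p = 0.427). The probes had opposite signs on 2 of 3 arrays, so the direction of Cx3cr1 at 17 dpi depended on the probe. Olfml3 was divided as well. Probe 22344 was at -0.31, -0.52 and -0.48 and was lower in TG by 0.48 (SE 0.12, adjusted p = 0.0179, limma). Probe 13234 was at 0.01, 0.17 and -0.15, with a fitted -0.00 ± 0.11.

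Fcrls differed between the genotypes in the other direction from these genes. Its probe 31207 was higher in TG by 0.55 (SE 0.16, adjusted p = 0.0304, limma, 1.47-fold), with 0.52, -0.07 and 0.97 on the 3 arrays. Probe 26953 gave 0.14, -0.05 and 0.36 and was at 0.18 ± 0.08 (adjusted p = 0.177). Both Fcrls probes were above 0 on the 2 arrays with TG animal 7 and slightly below on the array with TG animal 3. With the probes of each gene averaged, 3 of the 8 genes were called, and Cx3cr1 (-0.11) and Olfml3 (-0.24) no longer were.

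Tmem119 (0.20 ± 0.20), Sall1 (0.13 ± 0.09) and Siglech (-0.22 ± 0.14) did not pass at 17 dpi. Tmem119 gave -0.25 and -0.29 on the 2 arrays with TG animal 7, and 1.42 on the array that pairs TG 3 with WT 4. The same array carried the high value of the second Cx3cr1 probe (1.18) and of Sall1 (0.53, against -0.17 and 0.02). It had the widest spread of all 20 arrays (SD of the deposited ratios 1.07, lowest 0.286), and it alone held 75.3% of the summed squared ratios of Tmem119 and 71.7% of those of the second Cx3cr1 probe. The part of that spread in these values was not tested.

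The calls at 17 dpi rested on few animals and on the processing. With array weights, which give less weight to arrays that vary more, Gpr34 was at -0.30 (adjusted p = 0.173, limma) and Cx3cr1 by probe 18465 at -0.17 (adjusted p = 0.15), both no longer called, and P2ry12 was at -0.65 and still called. Without a dye term the calls of P2ry12 (-1.10), Cx3cr1 (-0.40) and Fcrls (0.53) were lost. With the arrays scaled to one spread those of P2ry12 (-0.73), Gpr34 (-0.50), Cx3cr1 (-0.29) and Olfml3 (-0.35) were lost. The 3 arrays of that time alone gave 0 called members, as they gave 0 calls over all probes, with P2ry12 at -1.31 and Gpr34 at -1.12. No fit could be made without TG animal 7 or WT animal 4, and each of the other 21 animals was left out in turn. The call of Olfml3 held in 16 of 21 fits and was lost without TG 17 dpi 1, TG 80 dpi 21, TG 10 dpi 1-5, WT 10 dpi 1-4 or WT 10 dpi 4-3 (-0.49 to -0.44). Those of P2ry12 and Gpr34 held in 10 of 21. Both were lost without TG 17 dpi 3, TG 80 dpi 26 or 27, TG naive 8, TG 10 dpi 1-2, WT 80 dpi 14 or 15, WT naive 4, or WT 10 dpi 1-4 or 4-3, P2ry12 also without TG naive 5 and Gpr34 also without TG 10 dpi 1-5. The calls of Cx3cr1 and Fcrls held in 5 of 21 each, those without TG naive 7, WT naive 3, TG 10 dpi 1-3 or WT 10 dpi 10-4, and without WT 17 dpi 1 for Cx3cr1 or TG 17 dpi 3 for Fcrls. Sizes moved most without WT 17 dpi 1, to -1.53 for P2ry12, -1.39 for Gpr34 and -0.73 for Cx3cr1, and without TG 17 dpi 3, to -0.71, -0.48 and -0.27, and no sign turned. Red blood cell genes moved with genotype, with 6 of 7 probes higher in TG at 17 dpi (median 1.56) and 3 of 7 at 80 dpi (median 0.88), and their part in the results was not tested.

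**Figure D2:**
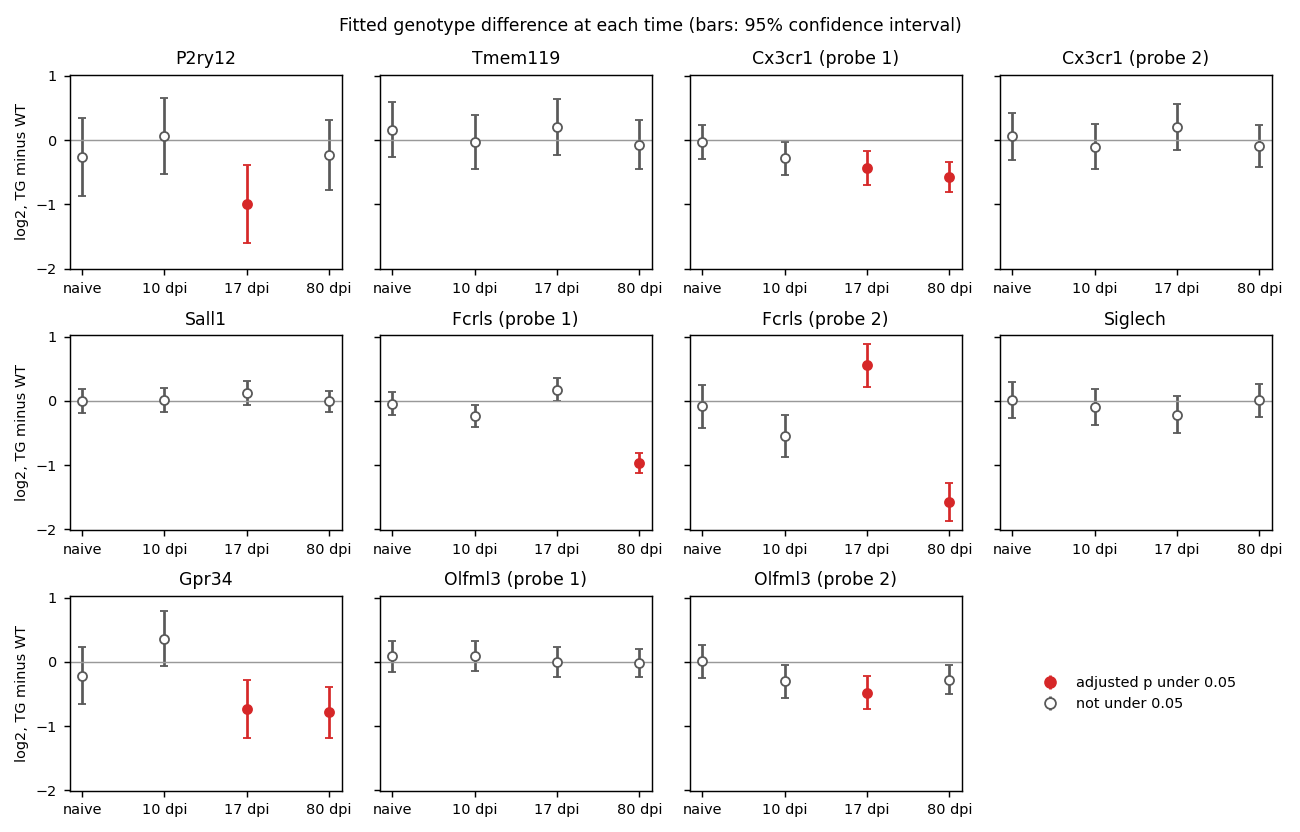
Fitted log2 difference of TG minus WT for each probe in naive mice and at 10, 17 and 80 dpi, with 95% confidence intervals. Filled red points passed an adjusted p under 0.05. Fcrls by its second probe was at -1.58 at 80 dpi, against 0.55 at 17 dpi, while Sall1, Siglech and Tmem119 did not pass at any time.

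At 80 dpi Fcrls was the member that set TG apart from WT cord. It was lower in TG by both probes, 1.95-fold by probe 26953 and 2.98-fold by probe 31207. Cx3cr1 by probe 18465 and Gpr34 were lower too, and P2ry12, Tmem119, Sall1, Siglech and Olfml3 did not pass. In all 4 of 11 probes, of 3 of 8 genes, were called, all lower, against 1.66% of all probes called in either direction and 1.43% called lower. The median of the 11 probes was -0.23, against 0.0053 over all probes.

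Fcrls by probe 26953 was at -1.15 for TG 26 over WT 13, -1.06 for TG 21 over WT 15, -0.72 for TG 26 over WT 15 and -0.91 for TG 27 over WT 14. By probe 31207 it was at -1.52, -1.49, -1.43 and -1.62. All 4 arrays lay far below the naive arrays, which ran from -0.11 to 0.09 and from -0.17 to 0.00. The fitted differences were -0.96 ± 0.07 (adjusted p = 6.03e-06, limma, 3 TG and 3 WT animals) and -1.58 ± 0.14 (adjusted p = 1.88e-05). The TG animal was in Cy5 on the array of TG 26 and WT 15 and in Cy3 on the other 3, and the deposited ratios were below 0 on all 4, also before the dye term was taken off (-1.27 to -0.60 and -1.53 to -1.39). Leaving out each of the 23 animals in turn kept both calls 23 times, with values from -1.01 to -0.92 and from -1.66 to -1.54.

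Cx3cr1 by probe 18465 was at -0.53, -0.58, -0.54 and -0.56 on the 4 arrays and was lower in TG by 0.57 (SE 0.11, adjusted p = 0.0115, limma, 1.49-fold). Its other probe gave -0.22, -0.12, -0.15 and -0.05 and a fitted -0.09 ± 0.15 (adjusted p = 1.00), below 0 on 4 of 4 arrays but not called. Gpr34 was at -0.77, -0.55, -0.69 and -0.54 and was lower in TG by 0.79 (SE 0.19, adjusted p = 0.0459, limma, 1.72-fold). The naive arrays ran from -0.16 to 0.25 for Cx3cr1 by probe 18465 and from -0.26 to 0.05 for Gpr34. For the other Cx3cr1 probe they reached down to -0.08 and overlapped with those of 80 dpi. How many of all probes had no such overlap was not counted. The call of Cx3cr1 was lost without any 1 of the 6 animals at 80 dpi and without TG 10 dpi 1-5 or WT 10 dpi 1-4, with values between -0.60 and -0.55 in those 8 fits. That of Gpr34 held in 6 of 23 fits, those without TG 17 dpi 1 or 3, WT 17 dpi 1 or 4, TG 10 dpi 1-3 or WT 10 dpi 10-4, with values between -0.90 and -0.65 over all 23. The call of Gpr34 was also lost without a dye term (-0.79, adjusted p = 0.0515, limma) and with the 80 dpi arrays alone (-0.64, adjusted p = 0.0652). With its 2 probes averaged Cx3cr1 was at -0.33 and still called.

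The other members varied little at 80 dpi. P2ry12 was at -0.08, 0.19, -0.32 and 0.06 (fitted -0.23 ± 0.25, 95% confidence interval -0.78 to 0.31). Tmem119 gave -0.07 ± 0.18, Siglech 0.01 ± 0.12 and Sall1 -0.01 ± 0.08, and the interval of Sall1 (-0.17 to 0.16) was the narrowest among them. Olfml3 was at -0.28 ± 0.11 by probe 22344 (below 0 on 4 of 4 arrays, adjusted p = 0.412) and at -0.02 ± 0.10 by probe 13234. P2ry12, called at 17 dpi, was thus not called at 80 dpi, and the difference between these genotype effects, 0.76 ± 0.36, did not pass either (adjusted p = 0.328).

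Muscle RNA moved with genotype at 80 dpi. The 10 skeletal muscle probes had a median of 1.41 in TG minus WT with 0 of 10 called, from TG animals 21 and 27. On the 2 arrays of TG animal 26, where the muscle median was 0.22 and -0.29, Fcrls was at -1.15 and -0.72 by probe 26953 and at -1.52 and -1.43 by probe 31207, against -1.06 and -0.91, and -1.49 and -1.62, on the 2 arrays of TG animals 21 and 27. Without TG animals 21, 27 and 1-5 the fitted values were -0.96 and -1.48 for Fcrls, -0.53 for Cx3cr1 and -0.71 for Gpr34, but 0 members were called and 0 of all probes.

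The time courses within each genotype place these differences. In WT cord Fcrls was higher at 80 dpi than in naive mice, by 0.80 ± 0.11 (adjusted p = 0.00118, limma, 3 animals at 80 dpi and 3 naive) and 1.45 ± 0.20 (adjusted p = 0.00153) by its 2 probes. In TG cord it was not (-0.12 ± 0.11 and -0.04 ± 0.20, adjusted p = 1.00 each). The lower Fcrls of TG against WT cord at 80 dpi thus went with a rise over naive in WT and no called change in TG. The test of that difference passed for both probes, at -0.92 ± 0.10 (adjusted p = 0.000925) and -1.49 ± 0.19 (adjusted p = 0.00228), against 0.354% of all probes.

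For WT at 80 dpi against naive 2 of 11 probes were called, both of Fcrls and both higher, against 1.09% of all probes in either direction and 0.978% higher. The 1 array that pairs the times, WT 14 over WT naive 4, gave 0.88 and 1.59. Without either of its animals the values were 0.75 and 0.71 for probe 26953 and 1.33 and 1.31 for probe 31207, and neither call held. Gpr34 (0.80 ± 0.27, adjusted p = 0.28), Cx3cr1 by probe 18465 (0.65 ± 0.16, adjusted p = 0.0729) and Olfml3 by probe 22344 (0.47 ± 0.16, adjusted p = 0.27) were above 0 and did not pass. In TG 0 of 11 were called at 80 dpi against naive, and 0.0206% of all probes. There the array of TG 27 over TG naive 8 gave -0.09 and -0.12 for Fcrls, 0.16 for Gpr34 and 0.14 for Cx3cr1.

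At 17 dpi against naive, WT cord had 2 of 11 probes called, 16.1% of all probes being called. Olfml3 by probe 22344 rose by 0.76 ± 0.16 (adjusted p = 0.00436, 2 animals at 17 dpi and 3 naive), and Fcrls by probe 26953 fell by 0.39 (SE 0.11, adjusted p = 0.0228). The array of WT 1 over WT naive 2 gave 1.10 for Olfml3 and -0.54 for Fcrls. Without WT naive 2 or WT 17 dpi 1 Olfml3 was at 0.49 and 0.61 and not called. The call of Fcrls was also lost without those animals (-0.27 and -0.29) and without TG 17 dpi 1 or 7, TG naive 5, TG 80 dpi 27, TG 10 dpi 1-5, WT 80 dpi 14 or WT 10 dpi 1-4 or 4-3 (-0.43 to -0.35). With the probes of a gene averaged, Olfml3 was at 0.31 and Fcrls at -0.25, neither called, and Fcrls by probe 26953 was also not called without a dye term (-0.42) or with scaled arrays (-0.26). P2ry12 was at 0.90 ± 0.37 and did not pass (adjusted p = 0.126), so that no fall of P2ry12 was called in WT cord. Sall1 (-0.29 ± 0.12, adjusted p = 0.111), Tmem119 (0.15 ± 0.27) and Siglech (0.28 ± 0.18) did not pass either. In TG cord 0 of 11 were called at 17 dpi, against 16.7% of all probes, and P2ry12 was at 0.17 ± 0.37.

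From 17 to 80 dpi Fcrls rose in WT cord by 1.19 ± 0.11 (adjusted p = 3.88e-05) and 1.55 ± 0.20 (adjusted p = 0.000516). These were 2 of 11 probes, against 7.81% of all probes and 3.82% called higher. The array of these times runs the other way, WT 17 dpi animal 1 over WT 80 dpi animal 13, and gave -1.12 and -1.66. Without WT 17 dpi 1 probe 31207 was at 1.31 and no longer called. In TG 0 of 11 were called, against 10.6% of all probes, and Fcrls was at 0.05 ± 0.11 and -0.57 ± 0.20 (adjusted p = 0.0794). The genotype effect on Fcrls therefore differed between 80 and 17 dpi by -1.14 ± 0.10 and -2.13 ± 0.19 (adjusted p = 0.00012 each), the 2 of 11 members called against 1.64% of all probes. Between 17 dpi and naive the genotype effect was called as different for 0 of 11 probes, against 6.70% of all probes, with Fcrls by probe 31207 at 0.64 ± 0.21 (adjusted p = 0.0789) and P2ry12 at -0.73 ± 0.38. These contrasts share animals and arrays with one another.

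**Figure D3:**
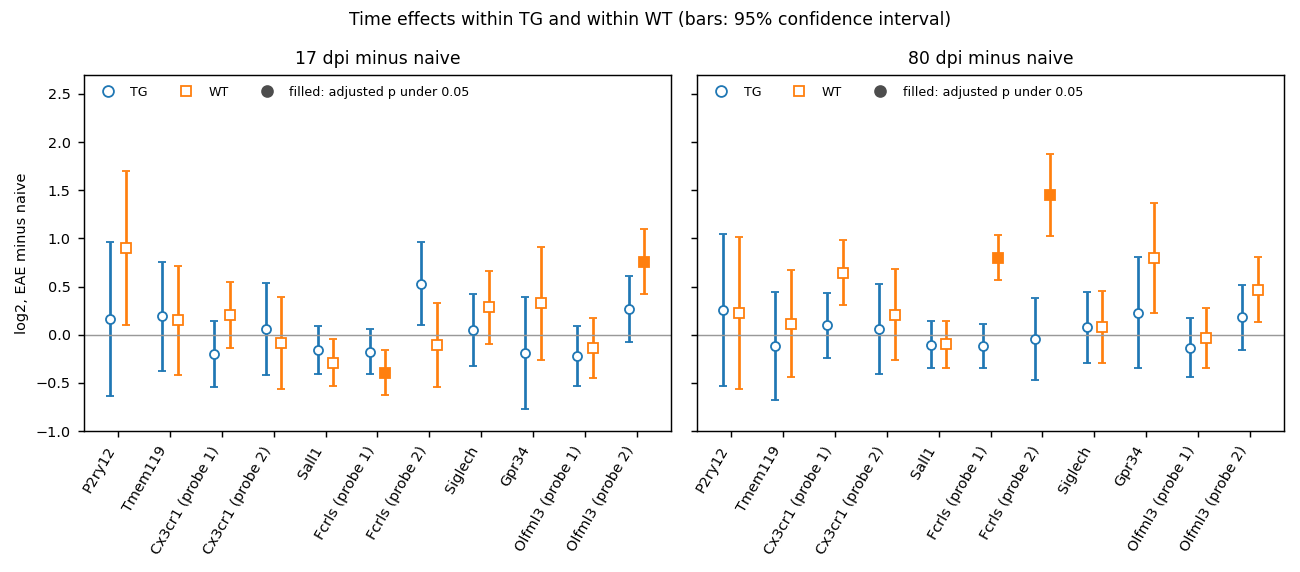
Log2 difference of EAE minus naive at 17 dpi and at 80 dpi for each probe, TG circles to the left of WT squares, with 95% confidence intervals and filled symbols where the adjusted p was under 0.05. In WT cord at 80 dpi Fcrls lies at 0.80 and 1.45, while in TG cord its probes lie at -0.12 and -0.04.

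Other genes of resting microglia, listed apart from the 9, were called in 1 direction at each of 17 and 80 dpi. Of 37 probes of 23 such genes, 19 were lower and 0 higher in TG at 17 dpi (median -0.45), and 11 were lower and 0 higher at 80 dpi (median -0.24). Examples at 17 dpi were the lipid-sensing receptor Trem2 (-1.80 ± 0.20, adjusted p = 4.4e-05), the ectonucleotidase Entpd1 (-1.73 ± 0.24) and the phagocytic receptor Mertk (-1.66 ± 0.18). At 80 dpi Trem2 (-2.32 ± 0.18), the transcription factor Irf8 (-1.41 ± 0.25) and Mertk (-1.13 ± 0.16) led. P2ry13, an ADP receptor related to P2ry12, did not pass at either time (-0.30 ± 0.12 and -0.22 ± 0.11). Trem2 stands in the list of disease-associated genes too, with the same probe, and it was higher in WT cord at 17 dpi than in naive mice (2.19 ± 0.26). Irf8, Itgam and Spi1 are also in the pan-myeloid list and Tgfbr1 in that of ligands and receptors. Tyrobp is in both the pan-myeloid and the disease-associated list, and Csf1 in the disease-associated list and that of ligands. The counts of these lists are thus not separate. In WT cord 18 of these 37 probes were higher and 1 lower at 17 dpi than in naive mice (median 0.53).

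Ligands and receptors that maintain the homeostatic state gave a mixed picture. Of 15 probes of 9 genes, 4 were lower and 2 higher in TG at 17 dpi, and 4 were lower and 0 higher at 80 dpi. Lower at both times were the cytokine Tgfb1 (-0.98 ± 0.17 and -0.79 ± 0.15) and 1 probe each of its receptors Tgfbr1 (-1.49 ± 0.17 and -1.10 ± 0.15) and Tgfbr2 (-1.17 ± 0.13 and -1.18 ± 0.11). A second Tgfbr1 probe did not pass at either time (-0.19 and -0.04). A second Tgfbr2 probe was higher at 17 dpi (0.31 ± 0.08) and the third did not pass (-0.04 ± 0.27), so the probes of that gene disagreed. Csf1, a ligand of Csf1r, was lower at 80 dpi (-0.48 ± 0.11, adjusted p = 0.0351). Il34, its other ligand, and Cx3cl1, the ligand of Cx3cr1, did not pass at either time (at 80 dpi -0.44 ± 0.12 for Il34, and 0.16 ± 0.24 and 0.00 ± 0.10 for the probes of Cx3cl1).

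Most probes of MHC class II, pan-myeloid and disease-associated microglia genes were lower in TG at 17 and at 80 dpi, while few of infiltrating monocytes were at 80 dpi and none of border macrophages. At 17 dpi, 10 of 11 probes of MHC class II genes were lower (median -2.78), as were 14 of 20 pan-myeloid probes (-1.31) and 14 of 23 probes of disease-associated microglia genes (-1.19), none of them higher. Of 27 probes of infiltrating monocyte genes 11 were lower and 1 higher (-0.19), and of 13 border macrophage probes 5 were lower (-0.09). At 80 dpi, 17 of 23 disease-associated probes were lower (median -1.32), led by Gpnmb (-4.16 ± 0.27) and Trem2, with 11 of 20 pan-myeloid (-0.98), 9 of 11 MHC class II (-1.50), 3 of 27 monocyte (-0.01) and 0 of 13 border macrophage probes (-0.05). The MHC class II and macrophage genes helped to choose the reading of the ratios, so their direction is not independent of it. Siglech is shared with plasmacytoid dendritic cells, of whose 8 other probes 1 was lower at 17 dpi and 0 at 80 dpi. How far the number of myeloid cells accounts for Fcrls, Cx3cr1 and Gpr34 was not tested.

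**Figure D4:**
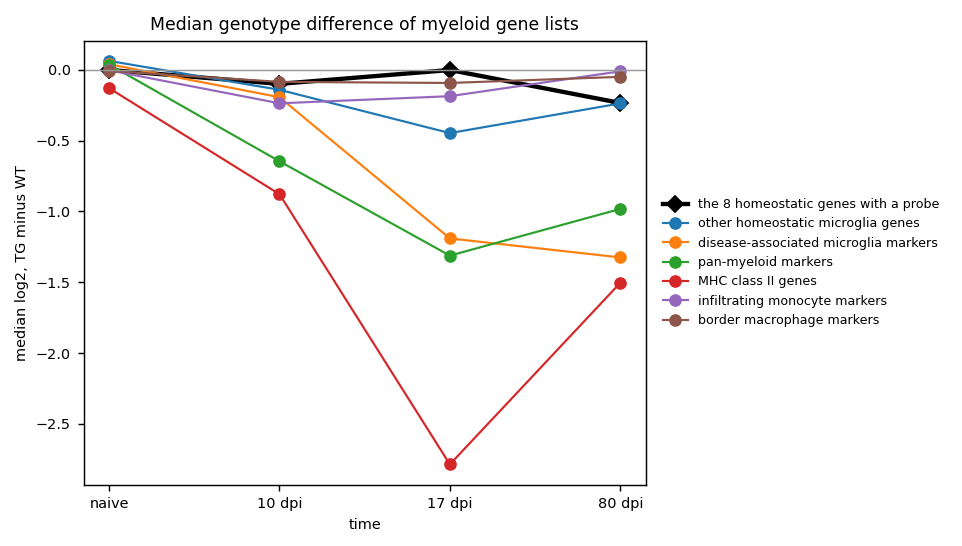
Median log2 difference of TG minus WT over the probes of each gene list in naive mice and at 10, 17 and 80 dpi. The homeostatic genes (black) have medians of -0.10 at 10 dpi and -0.23 at 80 dpi and lie near 0 at 17 dpi, where MHC class II genes are at -2.78, pan-myeloid genes at -1.31 and disease-associated genes at -1.19.

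The 11 probes did not follow 1 common pattern over the arrays. Likeness was described by the uncentred correlation over the 20 arrays with the dye term taken off. For deposited ratios this measure does not change with the choice of numerator, but the dye term was fitted under the reading used here, so values without it do. Arrays share animals, and the values carry no test. The 2 Fcrls probes were alike (0.904), and Fcrls was like Cx3cr1 by probe 18465 (0.66 and 0.61). That Cx3cr1 probe was also like Gpr34 (0.73) and Olfml3 by probe 22344 (0.67), and Gpr34 was like P2ry12 (0.68). The 2 probes of Cx3cr1 were not alike (-0.21, and 0.38 without the array of TG 3 and WT 4), nor were those of Olfml3 (-0.25, and -0.20 without it). Over the deposited ratios the likeness was 0.864 for the 2 Fcrls probes, 0.68 for Cx3cr1 by probe 18465 with Gpr34, 0.60 for Gpr34 with P2ry12, -0.21 for the 2 Cx3cr1 probes and -0.28 for the 2 Olfml3 probes. P2ry12 with Siglech turned in sign, at -0.18 over deposited ratios and 0.25 without the dye term. Tmem119 and the second Cx3cr1 probe had 0.76 over 20 arrays and 0.11 over the 19 without that of TG 3 and WT 4, while the pair of Fcrls probes stayed at 0.904 and Fcrls with Cx3cr1 was at 0.73 and 0.68.

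**Figure D5:**
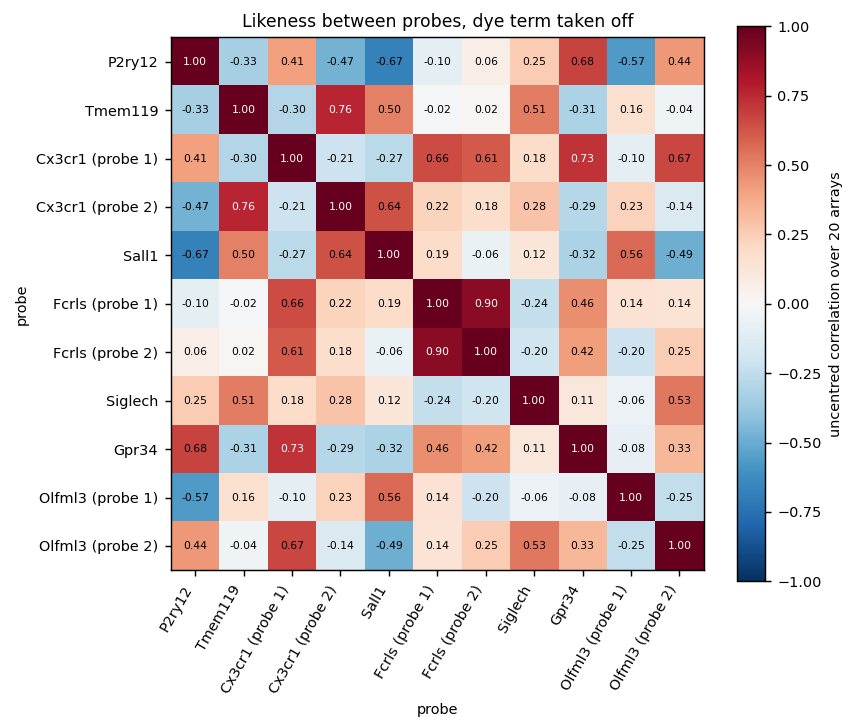
Uncentred correlation between the 11 probes over 20 arrays, dye term taken off, from -1 (blue) to 1 (red). The Fcrls probes (0.90), Cx3cr1 probe 1 with Gpr34 (0.73) and P2ry12 with Gpr34 (0.68) are alike, and the probe pairs of Cx3cr1 (-0.21) and Olfml3 (-0.25) are not.

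Over the deposited ratios, the probes outside the set most like the mean of the 8 genes were those of Plat (0.907), Blnk (0.904), Ctsd (0.898), Hexa (0.897) and Lhfpl2 (0.893), over 20 arrays. With the dye term taken off they were Trem2 (0.92), Hexa, Ctsd, Fxyd1 and Blnk. For P2ry12 the most alike were Mospd2 (0.948), Csnk1a1 (0.93) and Nrip1 (0.929). For Tmem119 they were Sowahb (0.974), Galnt11 (0.97) and Eral1 (0.968), and these high values again rest on a pattern that 1 array dominates. For Cx3cr1 by probe 18465 they were Syngr1 (0.913), Prkcd (0.895) and Cd63 (0.892), and for its other probe B3gnt7 (0.936), Atg4d (0.927) and Dnajc1 (0.917). The array of TG 3 and WT 4 dominates the pattern of that other probe too, with 71.7% of its summed squared ratios, dye term taken off.

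The likeness of each probe to the median of a gene list, again with the dye term taken off, differed between members. Olfml3 by probe 22344 had the highest values, 0.911 with infiltrating monocyte genes, 0.907 with MHC class II genes, 0.905 with pan-myeloid genes and 0.775 with disease-associated genes. Cx3cr1 by probe 18465 had 0.865 with disease-associated genes, 0.752 with pan-myeloid, 0.748 with MHC class II and 0.451 with monocyte genes. Gpr34 had 0.75 with disease-associated genes and 0.184 with monocyte genes, and P2ry12 had 0.618 with pan-myeloid and 0.602 with MHC class II genes. Siglech had 0.728 with monocyte genes. Fcrls by its 2 probes had 0.57 and 0.58 with disease-associated genes, 0.18 and 0.21 with MHC class II genes and -0.11 and 0.03 with monocyte genes. Tmem119 lay between -0.06 and 0.13 for these 4 lists, and Sall1 between -0.47 and -0.32. The part of infiltrating cells in the called members was not tested.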

How the data were processed

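Spinal cord RNA was amplified and dye-labelled, per the labels' protocols, and 20 arrays of 23 animals were analysed. The authors deposited 1 log ratio per probe and array for 44290 probes, taken here as log2, the base not being stated. Normalization was global loess within and quantile between arrays, in limma, per the labels' design text. Not given in the sources used here were scanner, background correction and dim-probe filtering. Each array held 43710 to 43894 values. The number of arrays limits the precision, and no read depth applies. Columns without a sample numbered 0.

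Each probe was fitted by generalised least squares in limma 3.58.1 (R 4.3.3) with coefficients for the groups and 1 dye term. Arrays that share an animal were given 1 common correlation, estimated over probes at 0.0041. At that value such arrays count as almost independent. The SEs and p-values therefore reflect mainly the spread between arrays, not that between animals. Empirical Bayes used 13 residual and 1.92 prior degrees of freedom, and p-values were adjusted by Benjamini-Hochberg over all probes with values on at least 16 of 20 arrays. The code was tested on simulated data. Of the probes, 32042 carry 1 gene symbol, 47 several and 12201 none in the annotation used, which can be old. Contrasts of times have 1 direct array each and otherwise rest on links through other groups. TG minus WT in naive mice, at 17 and at 80 dpi comes from the same fit and also draws on those arrays. Gpr34 at 80 dpi was at -0.786 in that fit and at -0.635 with the arrays of that time alone. For P2ry12 at 17 dpi these values were -0.999 and -1.31. TG animal 1 of 17 dpi stands on no array that pairs TG with WT. Animals are taken as separate by their numbers in the labels.

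The members, gene lists and tests were chosen with earlier results of these data known. Named were every member probe, P2ry13, up to 3 genes per list with the largest change among those called, and the probes most like the members. Tgfb1 and its receptors, Csf1, Il34 and Cx3cl1 were also named for their role. Alternatives covered the reading of the ratios, the dye term, arrays of 1 time alone, probe averaging, scaling, array weights, the correlation, the filter, and leaving out animals.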

Additional observations from a re-analysis of the deposited data

Results flagged for a closer look

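Fcrls was the 1 member whose genotype effect differed between times by a test of the difference itself (limma, both probes, adjusted p from 0.00012 to 0.00228). Between 80 dpi and naive mice the log2 difference of TG minus WT changed by -0.922 by probe 26953 and by -1.492 by probe 31207. Between 80 and 17 dpi it changed by -1.138 and by -2.129. Both probes report on 1 transcript and the contrasts share arrays, so these are not 4 separate results. The 80 dpi to naive difference of probe 31207 was at -1.42 without TG naive 8 and at -1.40 without WT naive 4, and not called there. None of the 22 groups of 4 arrays examined held an array far from the other 3 by Dixon's criterion, which chance meets in about 1 of 20 groups.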

How the results depend on the processing

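The reading of the ratios mattered most. With all arrays in title order, Cy5 over Cy3, signs turned for Cx3cr1 (0.12), Gpr34 (0.031) and Olfml3 (0.016) at 17 dpi and for Cx3cr1 (0.394), Fcrls (0.604 and 0.443) and Gpr34 (0.173) at 80 dpi in TG minus WT. They also turned in WT for Olfml3 at 17 dpi minus naive (-0.551) and for Fcrls at 80 dpi minus naive (-0.169 and -0.767) and 80 minus 17 dpi (-0.048 and -0.197), and for the genotype difference of Fcrls between 80 dpi and naive (0.45 and 0.781) and between 80 and 17 dpi (0.399 and 0.157). All 16 lost their call, and 0 members were called in each contrast of 17 and 80 dpi that had calls before. Of all probes, 9963 were called at 80 dpi in TG minus WT and 0 in the others of these contrasts. At 10 dpi 1 member was called beside 3479 of all probes, and for 10 dpi minus naive 1 beside 1002. With the 10 dpi arrays alone in title order 1 member was called at 10 dpi, 0 at 17 dpi and 2 at 80 dpi. For WT 17 dpi minus naive 1 was called, and 1 for the genotype difference between 80 dpi and naive. Of all probes 2335, 2541, 389, 5201 and 58 were called there, in the same order. The cause of these changes was not tested. Without TG animals 21, 27 and 1-5, which leaves fewer arrays, 0 members were called in every contrast. Of all probes 400 were then called at 17 dpi in TG minus WT, 0 at 80 dpi and 1440 for WT 17 dpi minus naive. Without a dye term 2 were called at 17 dpi and 1 for WT 17 dpi minus naive, beside 2195 and 4233 of all probes. Gpr34 was then not called at 80 dpi (-0.787). The arrays of 17 dpi alone gave 0, and those of 80 dpi alone gave 3, without Gpr34 (-0.635). With probes averaged per gene, which leaves 8 genes, 3 were called at 17 dpi, 0 for WT 17 dpi minus naive and 1 in each difference of Fcrls between times. Of all genes and probes without 1 symbol, 3856 and 4636 were called in the contrasts of 17 dpi. For the differences, 137 were called for 80 dpi to naive and 453 for 80 to 17 dpi. Scaled arrays gave 1 at 17 dpi, 1 for WT 17 dpi minus naive and 4 for WT 80 dpi minus naive. Of all probes 2880, 4202 and 690 were called there. Array weights gave 4 at 17 dpi, with the calls of Gpr34 (-0.296) and Cx3cr1 (-0.166) lost. In WT they gave 4 for 17 dpi minus naive, 5 for 80 dpi minus naive and 5 for 80 minus 17 dpi. Of all probes 13199, 4763 and 13950 were called there. In TG they gave 4, 2 and 1 for the same contrasts, beside 19980, 5833 and 18889 of all probes. The genotype differences gave 4 for 17 dpi to naive, 6 for 80 dpi to naive and 4 for 80 to 17 dpi. Of all probes 12762, 7801 and 7738 were called there. Each of these counts over all probes was above that of the main fit.

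With each animal left out, called members ranged from 0 to 5 at 17 dpi, 2 to 4 at 80 dpi, 0 to 4 for WT 17 dpi and WT 80 dpi minus naive, 1 to 4 for WT 80 minus 17 dpi, 0 to 1 for TG 17 dpi minus naive and 80 minus 17 dpi, 0 to 2 for the genotype difference of 17 dpi to naive, 1 to 3 for 80 dpi to naive and 2 to 3 for 80 to 17 dpi. No paired analysis was possible because array numbers within a group are names in accession order and each array already pairs 2 animals. The base of the logarithm, the direction and the brightness of each probe are not given, WT at 17 dpi rests on 2 animals, and calls near the threshold moved with the number of arrays.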

Other observations

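Other cell types, given as values. Over all probes 4.56% were called higher and 8.45% lower in TG at 17 dpi, and 1.43% lower at 80 dpi. At 17 dpi 2 of 9 neutrophil probes were higher in TG than in WT cord, S100a9 (1.34 ± 0.39) and Ngp (1.19 ± 0.30), with none lower. Of 13 T cell probes 5 were lower and 1 higher, with Cd3d at -1.24 ± 0.24, and 0 were called at 80 dpi. Of 12 oligodendrocyte probes 2 were higher and 1 lower at 17 dpi (median 0.28), so the calls went both ways. The myelin genes Mobp (1.35 ± 0.27) and Mbp (0.78 ± 0.20) were the higher ones. In WT cord 8 of those 12 were lower at 17 dpi than in naive mice (median -0.97), against 1 of 12 in TG (median -0.26), and the test of the difference was called for 1 higher and 1 lower. Of 15 astrocyte probes 3 were lower in TG at 80 dpi, among them Gfap (-1.08 ± 0.24) and the water channel Aqp4 (-0.73 ± 0.15). Of 7 red blood cell probes 6 were higher in TG at 17 dpi, with Hbb-bt at 1.82 ± 0.28.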
